A study of Homo sapiens with 3 samples.

Results

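Genes of cell-to-cell channels and epithelial seals were followed in PANC-1 cells, an established human pancreatic ductal adenocarcinoma line. The genes are GJA1, GJB2, GJC1, PANX1, CLDN1, CLDN4, CLDN7, TJP1 and OCLN, 9 of the 19775 genes read by the arrays. They were selected on their roles and on earlier log2 differences of these same arrays, among them that of GJA1, so their values are a description and support nothing beyond it. Every probe set that the platform annotation gives to these genes alone was taken, 21 of 54613. The study made 3 stable lines, and total RNA of each was hybridised to 1 Affymetrix array. The mutant JMJD3 line expressed a mutant of JMJD3 whose change the labels do not name, the wild-type JMJD3 line expressed the unaltered protein, and the control line carried the empty MSCV retroviral vector. None received a further treatment, and the labels do not say whether a line was 1 clone or a pool, or when the cells were collected. JMJD3, the product of KDM6B, removes a repressive methyl mark from histone H3. There were no replicates, so no test was run, no difference below has a replicate check, and line, clone and array cannot be told apart.

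Gap junctions are clusters of channels that join the cytoplasm of neighbouring cells and pass ions and small metabolites. Each cell supplies its end of the channel, a ring of connexins (the GJA, GJB and GJC genes), while the related pannexins mostly form channels to the outside of the cell. Tight junctions seal the space between epithelial cells near their upper surface. Their strands are built of claudins and occludin, and scaffold proteins such as that of TJP1 tie the strands to actin; pancreatic ducts depend on both kinds of junction for the secretion and containment of their fluid.

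The sequences before the start of 3 of these genes are shown because GJA1 and GJB2 were both higher in the JMJD3 arrays than in control and OCLN had the widest spread between arrays of the tight junction genes among the 9. CLDN4 and CLDN7 were also higher in both JMJD3 arrays than in control, by less. Each is the 250 bases before the RefSeq start in GRCh38.p14, 5′ to 3′ on the strand of the gene, chr6:121435396-121435645 (+) for GJA1, chr13:20192939-20193188 (-) for GJB2 and chr5:69492297-69492546 (+) for the more upstream of the OCLN starts. Capitals mark matches, on either strand, to the AP-1 motif TGANTCA, the GC box GGGCGG or the E-box CAGGTG that the ZEB and SNAI repressors can bind.
GJA1: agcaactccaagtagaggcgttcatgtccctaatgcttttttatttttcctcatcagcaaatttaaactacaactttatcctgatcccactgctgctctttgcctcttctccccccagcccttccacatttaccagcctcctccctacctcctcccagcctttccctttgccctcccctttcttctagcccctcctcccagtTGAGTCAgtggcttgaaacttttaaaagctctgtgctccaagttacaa
GJB2: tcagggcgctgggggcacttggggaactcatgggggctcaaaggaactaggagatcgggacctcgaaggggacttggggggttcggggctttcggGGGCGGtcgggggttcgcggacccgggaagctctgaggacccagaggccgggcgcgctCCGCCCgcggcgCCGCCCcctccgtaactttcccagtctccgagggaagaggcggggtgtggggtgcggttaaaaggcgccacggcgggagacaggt
OCLN: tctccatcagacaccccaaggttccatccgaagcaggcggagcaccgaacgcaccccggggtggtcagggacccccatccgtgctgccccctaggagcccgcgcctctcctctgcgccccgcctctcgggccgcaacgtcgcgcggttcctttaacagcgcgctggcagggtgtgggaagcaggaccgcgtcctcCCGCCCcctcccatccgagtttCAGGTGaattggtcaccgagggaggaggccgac
The GJA1 window holds 1 AP-1 match, which begins 48 bases before the start, and no GC box or E-box. The GJB2 window holds 3 GC boxes, the nearest beginning 85 bases before the start. The OCLN window holds 1 GC box and 1 E-box, which begins 33 bases before the start. Among the windows not shown, that of CLDN4 holds 2 AP-1 matches, a CLDN7 window 4 E-boxes, a TJP1 window 1 E-box and the other OCLN window 1 E-box. AP-1 and E-box matches were thus not confined to the genes shown. Of 35116 such windows over all genes, 6.57% hold the AP-1 motif, 42.6% the GC box and 17.5% the E-box. These letters describe the windows and show no bound factor. TATAAA was searched too and occurs in 10.7% of all windows and in none of the 13 windows listed for 8 of the 9 genes. None of the searched motifs overlap in the sequences shown.

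The deposited values are log2 signals, and 5.48, their pooled median, was taken as a floor under which a signal was treated as not measured. Median signals were 5.49 in mutant JMJD3, 5.48 in wild-type JMJD3 and 5.50 in control, and 12513, 12571 and 12438 genes in the same order lay over the floor at their brightest probe set. The introduced gene showed in only part of its probe sets. KDM6B probe set 1556067_a_at read 6.45 in mutant JMJD3, 6.73 in wild-type JMJD3 and 5.53 in control, while 41387_r_at read 7.65, 7.66 and 7.60. Of 8 ductal epithelial markers 7 were over the floor in every array, and CFTR, the chloride channel of duct cells, was at 4.45 in all. Their summed linear signal was 11476 in mutant JMJD3, 19158 in wild-type JMJD3 and 17006 in control, but the markers did not go one way. In mutant JMJD3 against control 3 of the 7 were higher (SOX9 by 2.59, KRT19 by 2.18 and EPCAM by 0.90 on the log2 scale) and 4 lower, KRT8 (-1.09) and KRT18 (-0.57) among them, while 5 were higher and 2 lower in wild-type JMJD3 against control. KRT19 and SOX9 lay near the floor in control, at 5.55 and 5.81. All of the 7 but KRT19 rest on probe sets marked as shared. Without shared probe sets only 2 of these markers were measured in mutant JMJD3 against control, 1 higher and 1 lower. None of the 4 acinar, 4 endocrine and 3 leukocyte markers with a probe set was over the floor in any array, against 1 of 4 endothelial markers (PECAM1) and 3 of 6 fibroblast markers (COL1A1, DCN and PDGFRB). The part of these epithelial marker differences in the results below was not tested.

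Signals under the floor were raised to it, log2 signals were then subtracted between arrays, and folds are their linear form. A gene was measured in a comparison if either array exceeded the floor, and counted as apart from 2-fold upward. Of the 9 genes 8 were measured in each comparison. In mutant JMJD3 against control, 1 of the 8 was 2-fold apart (GJA1), where 3.52% of all 12707 measured genes were. In wild-type JMJD3 against control 0 of the 8 were, against 2.26% of 12697 genes. In mutant against wild-type JMJD3 2 of the 8 were (GJA1 and OCLN), against 8.81% of 12829 genes. GJB2 entered both comparisons with control as a lower bound, so it may have been further apart than counted. Since the genes were chosen with these contrasts known, nothing is read from these shares. The median difference over the 8 genes was 0.24 for mutant JMJD3 against control, 0.005 for wild-type JMJD3 against control and 0.265 for mutant against wild-type JMJD3, beside medians over all measured genes of 0.00, 0.05 and 0.00.

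**Figure D1:**
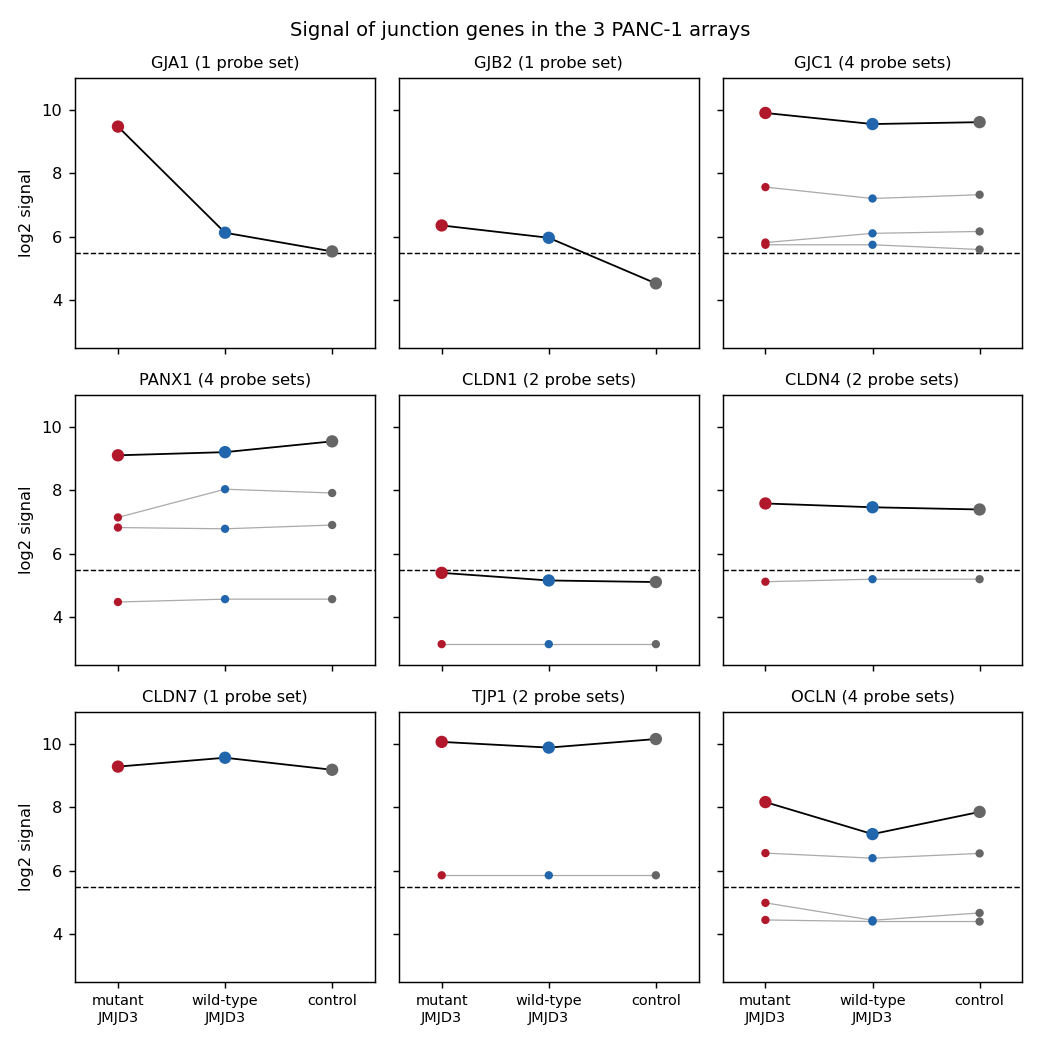
Log2 signal (vertical axis) of every probe set of the 9 genes in the mutant JMJD3, wild-type JMJD3 and control arrays (1 array each, no error bars). Large points joined by black lines are the brightest probe set of a gene, small points the others, and the dashed line is the floor at 5.48. GJA1 stands out at 9.48 in mutant JMJD3, both CLDN1 probe sets stay under the floor, and OCLN is lowest in wild-type JMJD3.

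GJA1 encodes Cx43, the most widely expressed connexin. It read 9.48 in mutant JMJD3, 6.13 in wild-type JMJD3 and 5.54 in control. The mutant array was thus far above the others, and control lay barely over the floor. Mutant JMJD3 exceeded control 15.3-fold and exceeded wild-type JMJD3 10.2-fold, and wild-type JMJD3 exceeded control 1.51-fold. GJA1 had the 2nd highest difference of all measured genes both in mutant JMJD3 against control and in mutant against wild-type JMJD3. In wild-type JMJD3 against control its difference of 0.59 was not extreme, as 16.2% of measured genes differed by at least as much in either direction. All of this rests on 1 probe set, 201667_at, with no other to check it. RefSeq also lists a pseudogene, GJA1P1, and whether the probes can bind its transcripts was not tested. The size of the difference depends on how dim signals are handled. With the floor at the 60th percentile the log2 difference of mutant JMJD3 from control was 3.31, and with an offset added to all signals instead it was 3.06, in each case over 2-fold.

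GJB2 encodes Cx26, an epithelial connexin whose variants cause hereditary deafness. It read 6.36 in mutant JMJD3, 5.97 in wild-type JMJD3 and 4.53 in control. Both JMJD3 arrays were over the floor and control was under it. Mutant JMJD3 therefore exceeded control at least 1.84-fold, and wild-type JMJD3 exceeded it at least 1.40-fold. Mutant exceeded wild-type JMJD3 1.31-fold, and 43.4% of measured genes differed at least as much between those arrays. The bounds follow the floor. At the 40th percentile GJB2 was over 2-fold in both comparisons with control (log2 1.47 for mutant JMJD3 and 1.08 for wild-type JMJD3), and at the 60th percentile the bound for mutant JMJD3 was 0.19.

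GJC1 encodes Cx45, known from the conducting tissue of the heart, and was read by 4 probe sets over the floor in every array. The brightest, 228776_at, read 9.91 in mutant JMJD3, 9.56 in wild-type JMJD3 and 9.62 in control. The arrays thus lay close together, with mutant 1.22-fold above control and wild-type 1.04-fold below it. The probe sets did not go the same way: 3 were higher and 1 lower in mutant JMJD3 than in control, from -0.35 to 0.29 on the log2 scale. A spread of 0.64 between probe sets of this gene was larger than any of its differences between arrays at the brightest probe set.

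PANX1 encodes pannexin 1, a channel for the release of ATP. It read 9.11 in mutant JMJD3, 9.21 in wild-type JMJD3 and 9.55 in control at 227107_at, the brightest of its 4 probe sets. Control was highest there, 1.36-fold over mutant and 1.27-fold over wild-type JMJD3. A further probe set, 204715_at, read 7.15 in mutant JMJD3, 8.04 in wild-type JMJD3 and 7.92 in control, so that it set mutant apart from both others. The third that was measured, 235295_at, spanned 6.79 to 6.91 over the arrays. All 3 were lower in mutant JMJD3 than in control, by -0.77 to -0.08 on the log2 scale, and none reached 2-fold.

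Among the connexins as a family, 13 of 21 listed genes had a probe set of their own, and 8 were measured. In mutant JMJD3 against control 4 were higher, 3 lower and 1 equal. At the floor used GJA1 was the only one past 2-fold, where 3.52% of all measured genes were. In wild-type JMJD3 against control the counts were again 4 higher, 3 lower and 1 equal. None was past 2-fold at that floor, against 2.26% of all measured genes. GJB2 is a lower bound in both comparisons with control, at log2 0.88 for mutant JMJD3 and 0.49 for wild-type JMJD3. Whether GJB2 was past 2-fold there is thus not settled, and with the lower of the alternative floors it was in both. GJB1, which encodes the hepatic and pancreatic acinar Cx32, read 5.99 in mutant JMJD3, 6.40 in wild-type JMJD3 and 6.50 in control. GJD2, GJD3 and GJA4 stayed within 0.18 of control in both JMJD3 arrays. Without GJA1 and GJB2, no measured connexin was therefore more than 0.51 from control on the log2 scale. PANX2, the other measured pannexin, read 6.33, 6.54 and 6.40 in mutant JMJD3, wild-type JMJD3 and control.

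**Figure D2:**
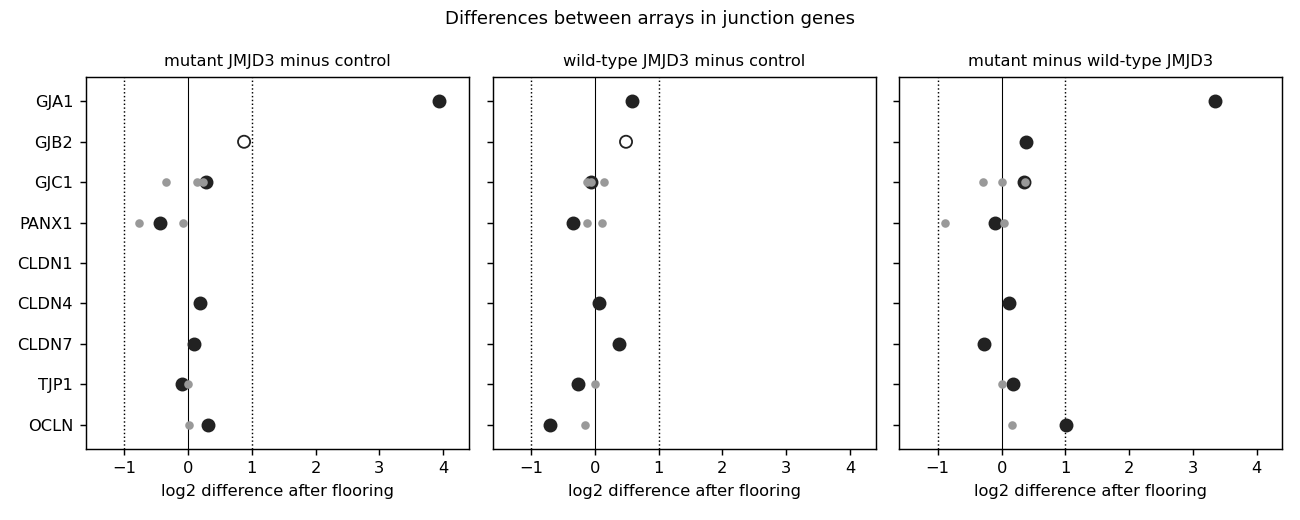
Log2 difference after flooring (horizontal axis) in the 3 comparisons, with large points for the brightest probe set of each gene, small points for its other measured probe sets and open points for lower bounds. Dotted lines mark 2-fold. GJA1 lies at 3.94 for mutant JMJD3 minus control and 3.35 for mutant minus wild-type JMJD3, the OCLN point lies at the line (1.01) in the last panel, and CLDN1 has no point because no array was over the floor.

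Among the claudin, occludin and scaffold genes of the 9, OCLN differed most. Occludin spans the membrane at tight junctions and regulates their permeability. At 227492_at it read 8.17 in mutant JMJD3, 7.16 in wild-type JMJD3 and 7.86 in control. Wild-type JMJD3 was the low array and the others lay closer together. Mutant exceeded wild-type JMJD3 2.01-fold, wild-type JMJD3 was 1.62-fold under control, and mutant JMJD3 was 1.24-fold over control. The other measured probe set, 231022_at, had the same order but read 6.56, 6.40 and 6.55 in mutant JMJD3, wild-type JMJD3 and control, so the fold of mutant over wild-type was only 1.12 there. A log2 difference of 1.01 sits at the threshold. It was 0.91 with quantile normalization, 0.83 with the added offset and 0.585 with the median over probe sets, all under 2-fold. RefSeq lists a transcribed pseudogene, OCLNP1, and its part in the signal was not tested.

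The claudins among the 9 genes moved little. CLDN7, a claudin of ducts and gut that binds the adhesion protein EPCAM, read 9.29 in mutant JMJD3, 9.57 in wild-type JMJD3 and 9.19 in control. Wild-type JMJD3 was highest, 1.30-fold over control, with a single probe set. CLDN4, a barrier claudin and receptor for a clostridial toxin, read 7.59 in mutant JMJD3, 7.47 in wild-type JMJD3 and 7.40 in control. Mutant JMJD3 was 1.14-fold over control, and 50.2% of measured genes differed at least as much. Its second probe set was under the floor. CLDN1, the claudin of the skin barrier, read 5.40 in mutant JMJD3, 5.16 in wild-type JMJD3 and 5.11 in control at 222549_at and 3.15 in all at 218182_s_at, so it was not measured and no fold is given.

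TJP1 encodes a scaffold that binds claudins, occludin and also the tail of Cx43, which links both kinds of junction. It read 10.07 in mutant JMJD3, 9.89 in wild-type JMJD3 and 10.16 in control at 202011_at. Wild-type JMJD3 was lowest by a small step, 1.21-fold under control, and 49.6% of measured genes differed at least as much. The other probe set, 214168_s_at, read 5.86 in all arrays. It is 1 of 2 probe sets of these genes with the same value in every array, as held for 21.0% of all probe sets, and such a value is no evidence of equal transcript amounts.

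**Figure D3:**
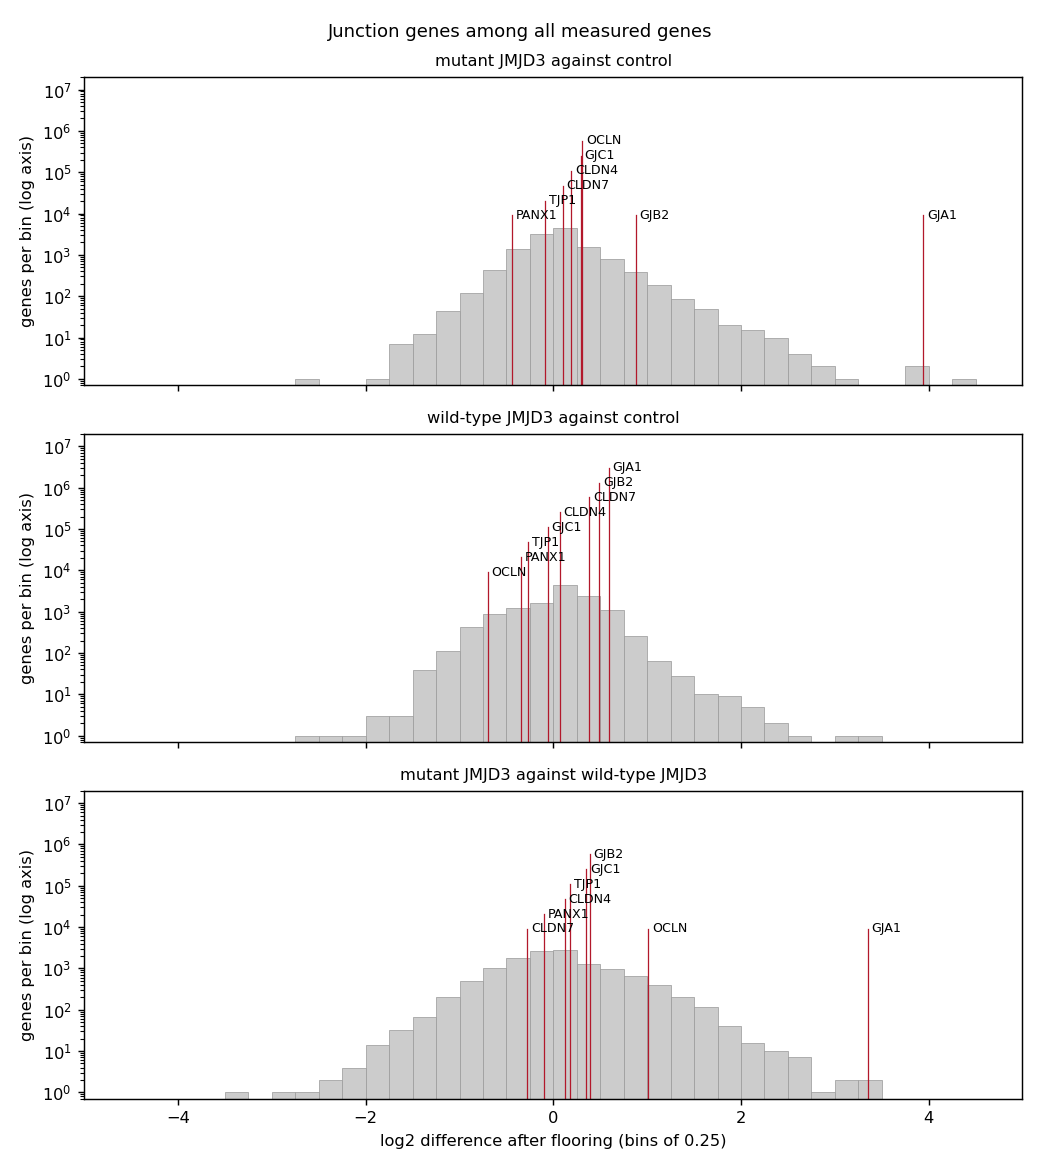
Number of measured genes per bin of log2 difference (vertical log axis, bins of 0.25) in the 3 comparisons, with vertical lines at the junction genes measured there (line height is for the labels only). GJA1 lies at the far right of the mutant JMJD3 comparisons, at 3.94 and 3.35. GJB2 in mutant JMJD3 against control (0.88) was past the 90th percentile of size there (0.66). So was OCLN in wild-type JMJD3 against control (-0.70, percentile 0.69) and in mutant against wild-type JMJD3 (1.01, percentile 0.95). The remaining lines lie within that percentile.

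The genes also differed in which array was lowest or highest. Of the 7 over the floor in all arrays, 3 were lowest in wild-type JMJD3 (GJC1, TJP1 and OCLN), 3 in control (GJA1, CLDN4 and CLDN7) and 1 in mutant JMJD3 (PANX1). Mutant JMJD3 was highest for 4 of them, wild-type JMJD3 for 1 and control for 2. Over all 12156 genes so measured, the lowest array was mutant JMJD3 for 31.4%, wild-type JMJD3 for 28.4% and control for 25.2%, and the highest was mutant JMJD3 for 29.8%, wild-type JMJD3 for 42.1% and control for 14.7%, the rest being ties. No difference of the 8 measured genes changed sign under any of the 7 alternative settings, where a setting gave a value.

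Further tight junction genes came from lists chosen for their roles. Of 24 claudins 20 had a probe set of their own and 12 were measured. In mutant JMJD3 against control 5 were higher and 4 lower. Of these, 1 was 2-fold higher, where 3.52% of all measured genes were 2-fold apart. With the arrays scaled to one median 8 of 11 were higher and 3 lower. In wild-type JMJD3 against control 9 were higher and 1 lower, with none at 2-fold against 2.26% of all measured genes. Their median of 0.145 stood beside 0.05 over all genes. CLDN10, which forms ion-selective pores, read 6.71 in mutant JMJD3, 6.34 in wild-type JMJD3 and 5.60 in control. Mutant JMJD3 exceeded control 2.16-fold, but with the floor at the 60th percentile the log2 bound was 0.54. CLDN6, an embryonic claudin, read 6.33, 7.07 and 6.51 in mutant JMJD3, wild-type JMJD3 and control, 1.67-fold lower in mutant than in wild-type. CLDN12 read 9.65, 9.13 and 9.28 and CLDN9 read 5.95, 6.31 and 6.31 in that order of arrays.

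Most of the measured cytoplasmic scaffolds of the tight junction were below control in wild-type JMJD3 at their brightest probe set. Of 7 measured scaffold genes, TJP1 included, 0 were higher and 5 lower than control with wild-type JMJD3, with a median of -0.27 against 0.05 over all genes. When the arrays were scaled to one median or quantile normalized, 2 of the 7 were higher and 5 lower. In mutant against wild-type JMJD3 6 of 7 were higher, with a median of 0.25 against 0.00. This order did not hold for junction genes at large. Over 44 junction and polarity genes outside the 9, wild-type JMJD3 was lowest for 31.8% and highest for 34.1%. PATJ, a multi-domain scaffold of the Crumbs complex, read 7.47 in mutant JMJD3, 6.46 in wild-type JMJD3 and 7.16 in control, 2.01-fold higher with mutant than with wild-type. It rests on a shared probe set and was under 2-fold in 3 settings, with the lowest at 0.625. AFDN, which encodes the actin-binding afadin, read 9.21, 8.25 and 8.43, and MAGI3 read 7.03, 6.26 and 7.0 in mutant JMJD3, wild-type JMJD3 and control. A second MAGI3 probe set, 230409_at, went against this, at 5.44, 6.13 and 5.92. PALS1, another Crumbs scaffold, read 11.26, 11.18 and 11.49 at its brightest probe set. At 219321_at PALS1 read 8.88, 9.24 and 9.30, so mutant was below wild-type JMJD3 there. MARVELD2, which encodes tricellulin, the occludin relative found where cells meet at corners, read 7.20 in both JMJD3 arrays and 7.17 in control.

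Polarity genes, whose products place the tight junction, included the widest difference of the listed junction genes after GJA1. PARD6B, an adaptor of atypical protein kinase C, read 9.15 in mutant JMJD3, 7.43 in wild-type JMJD3 and 8.02 in control. Mutant was the high array and wild-type the low one, 3.29-fold apart, and mutant was 2.19-fold over control. Its remaining 2 probe sets were under the floor. PRKCI, the kinase itself, read 10.73, 9.61 and 10.26 in mutant JMJD3, wild-type JMJD3 and control, and mutant exceeded wild-type 2.17-fold. Its probe set 209678_s_at differed by 0.07 between them, and taking the median of its probe sets gave 0.85, under 2-fold. Of the 7 measured polarity genes 4 were higher in mutant than in wild-type JMJD3, 2 of them by 2-fold, and 2 were lower. Over all 12829 measured genes 6.2% were 2-fold higher in that comparison. In wild-type JMJD3 against control 3 were higher and 3 lower. PARD6G read 6.51, 6.01 and 5.79 and CRB3, the epithelial Crumbs protein, 7.30, 7.77 and 7.37 in mutant JMJD3, wild-type JMJD3 and control. The shared PARD6G probe set 224538_s_at had another order, at 5.51, 5.92 and 5.51.

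Of the junctional adhesion molecules 3 were measured. JAM3, an immunoglobulin-like adhesion protein, read 7.30 in mutant JMJD3, 7.08 in wild-type JMJD3 and 5.94 in control. Both JMJD3 arrays were above control, 2.57-fold for mutant and 2.20-fold for wild-type, and they share that control. With the added offset the log2 differences were 0.93 and 0.76, both under 2-fold. ESAM, an adhesion protein best known from endothelium, read 6.23, 7.53 and 6.89, and was 2.46-fold lower in mutant than in wild-type JMJD3 (log2 -0.94 with the offset). CXADR, the adenovirus receptor of tight junctions, read 9.53, 9.04 and 9.74, 1.62-fold lower in wild-type JMJD3 than in control.

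**Figure D4:**
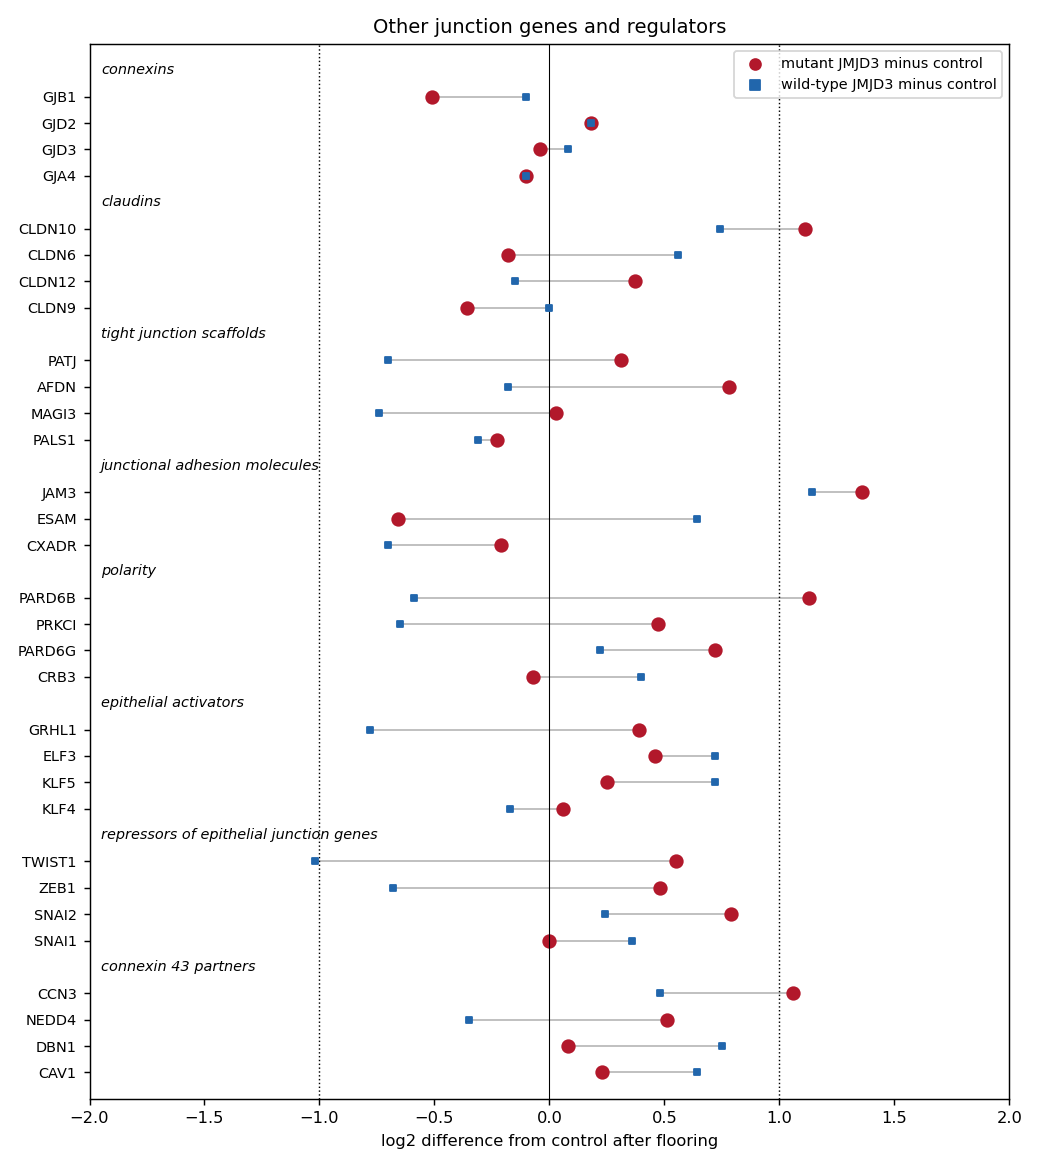
Log2 difference from control after flooring (horizontal axis) for further genes of the junction and regulator lists, as circles for mutant JMJD3 and squares for wild-type JMJD3, at the brightest probe set of each gene. Dotted lines mark 2-fold, and both points of a gene share its control value. JAM3 lies beyond 2-fold on the right in both (1.36 and 1.14), while PARD6B, TWIST1, GRHL1 and ZEB1 have the circle right of 0 and the square left of it. Further genes have that split too, PRKCI, PATJ, AFDN and NEDD4 among them.

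Transcription factors known to act on epithelial junction genes were read alongside. TWIST1 and ZEB1, repressors of the epithelial state, were lowest in wild-type JMJD3, as OCLN was. TWIST1 read 8.60 in mutant JMJD3, 7.03 in wild-type JMJD3 and 8.05 in control, and ZEB1 read 9.84, 8.68 and 9.36. At the shared probe set 212758_s_at ZEB1 read 7.71, 6.89 and 7.91, so mutant JMJD3 was under control there. GRHL1, a grainyhead factor that activates epithelial junction genes, had the same order as TWIST1, with 7.79, 6.62 and 7.40. It was 2.25-fold higher in mutant than in wild-type JMJD3 (log2 0.90 with the offset, under 2-fold). SNAI2, another repressor, read 9.61, 9.06 and 8.82, highest in mutant JMJD3 and lowest in control, and SNAI1 read 6.38, 6.74 and 6.38, highest in wild-type JMJD3. KLF5 read 8.57, 9.04 and 8.32 and ELF3 read 8.05, 8.31 and 7.59, both epithelial activators that were highest in wild-type JMJD3. Of the other ELF3 probe sets, 201510_at had the same order (6.69, 6.90 and 6.62) and 229842_at was highest in mutant JMJD3 (7.36, 7.10 and 6.59). At the shared probe set 209212_s_at KLF5 read 7.24, 7.34 and 7.31, so wild-type JMJD3 was only 0.03 over control there. Wild-type JMJD3 was also the highest array for 42.1% of all genes over the floor in every array. KLF4, a further activator, read 12.13, 11.90 and 12.07, lowest in wild-type JMJD3.

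All 8 genes listed for proteins that bind, modify or traffic Cx43 were measured. In mutant JMJD3 against control 7 were higher and 1 lower, with a median of 0.25 against 0.00 over all genes. That median was only 0.0675 when each gene was given the median over its probe sets. Under quantile normalization 6 were higher and 2 lower in this comparison. In wild-type JMJD3 against control 6 were higher and 2 lower, with a median of 0.455 against 0.05. In mutant against wild-type JMJD3, where GJA1 was far higher, 2 were higher and 6 lower, with a median of -0.21 against 0.00. CCN3, a secreted matricellular protein that binds Cx43, read 7.24 in mutant JMJD3, 6.66 in wild-type JMJD3 and 6.18 in control, 2.08-fold higher in mutant JMJD3 than in control. Its other probe set, 204501_at, differed by 0.10, and with the median over both the difference was 0.58. NEDD4, a ubiquitin ligase that promotes removal of Cx43 from the membrane, read 7.75, 6.89 and 7.24, and was 1.82-fold higher in mutant than in wild-type JMJD3. DBN1, the actin-binding drebrin, read 9.11, 9.78 and 9.03, and CAV1, the caveolae protein, 10.65, 11.06 and 10.42 in mutant JMJD3, wild-type JMJD3 and control, so both were highest in wild-type JMJD3, where GJA1 was not.

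The genes nearest to GJA1 in pattern over the arrays were listed. Likeness was the distance between a gene and GJA1 in the pair of log2 differences from control, over 12155 other genes above the floor in all 3 arrays, and it describes 3 points only. Since GJA1 was selected with its large difference known, these distances do not measure how rare its pattern is. The nearest were AKR1C1, an aldo-keto reductase, at 1.08, TEX19, a germ cell gene, at 1.13, DEFB1, an epithelial defensin, at 1.24, FN1, which encodes fibronectin, at 1.48 and SHANK2, a synaptic scaffold, at 1.5. AKR1C1, for example, read 10.53 in mutant JMJD3, 8.28 in wild-type JMJD3 and 7.67 in control. All 5 were highest in mutant JMJD3 and lowest in control, as GJA1 was, and none had as large a difference between mutant JMJD3 and control. The same 5 were nearest with the arrays scaled to one median or quantile normalized. AKR1C1 and FN1 rest on shared probe sets, and without such probe sets SPINK13 and HLA-DMB took their places.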

How the data were processed

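The authors deposited log2 signals of 54613 probe sets in 3 arrays, per the column labels, written to 2 decimals from 2.42 to 14.94. The submitters' processing notes name MAS5, without settings, and how arrays were scaled to each other has no statement in the sources used. The sorted columns differed by at most 0.14. The number of arrays limits the precision, and no replicate or counting error can be given.

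Of the probe sets, 41091 had 1 gene symbol in the platform annotation, 1801 had several and were left unnamed, and 11721 were not listed. The gene identifiers of 41037 matched RefSeq (GRCh38.p14), which changed 0 symbols. No genome build comes with the values, so coordinates are printed only for RefSeq sequences. The probe set with the highest mean stood for its gene, and 10523 of 19775 genes had several. Identifiers ending in _s_at or _x_at mark shared probe sets.

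The genes and lists were chosen with earlier results of these data known. Named from each list were up to 4 genes with the largest difference and every gene past 2-fold; genes like GJA1 were the 5 nearest. The 7 alternatives are given in the closing section. On simulated data for mutant JMJD3 against control, all 200 changed genes were recovered. These were 50 each with log2 changes of 1.5, -1.5, 3 and -3, and 0 of 12405 unchanged genes of 19775 were called. The changed genes were drawn from those far over the floor in control, and the added noise was small. Genes as dim in control as GJA1 and GJB2 were not tried, and the simulation checks the calculation only. The tools were pandas 2.3.3, numpy 2.4.6 and matplotlib 3.10.9 under Python 3.11.15.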

Additional observations from a re-analysis of the deposited data

How the results depend on the processing

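Of 166 values of the 8 measured genes under the 7 alternatives, 157 stayed within 1.5-fold and on their side of the 2-fold threshold, 9 did not, and 0 called values changed sign. Counts of the 9 genes at 2-fold moved as follows, by the construction of each setting. With the floor at the 40th percentile (log2 4.89), mutant JMJD3 against control had 2 genes and wild-type JMJD3 against control 1, since GJB2 passed in both. In mutant against wild-type JMJD3 the count was 1, without OCLN, under quantile normalization, with an offset added in its stead and with the median over probe sets. GJA1 was over 2-fold in both mutant JMJD3 comparisons in all 7 settings, with lowest log2 differences of 3.06 from control and 2.73 from wild-type JMJD3. With the floor at the 60th percentile (log2 6.17), GJA1 and GJB2 gave no value in wild-type JMJD3 against control. Leaving out shared probe sets changed no value of these 8 measured genes, whose brightest probe sets are unshared. No paired analysis was possible because each group has 1 array. GJA1, GJB2 and CLDN7 rest on 1 probe set each, and signals near the floor limit GJA1 in control, GJB2 and CLDN1.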

Other observations

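Other contacts between these cells were read from the same arrays. Of 9 adherens junction genes 8 had a probe set of their own and 6 were measured, with none 2-fold apart in any comparison. All-gene shares were 3.52% for mutant JMJD3 against control, 2.26% for wild-type JMJD3 against control and 8.81% for mutant against wild-type. With so few genes, nothing is read from that absence. CDH2, the N-cadherin gene, read 8.41 in mutant JMJD3, 7.90 in wild-type JMJD3 and 7.50 in control at its brightest probe set, mutant JMJD3 exceeding control 1.88-fold. At the shared probe set 203441_s_at CDH2 read 5.88, 5.88 and 5.80, only 1.06-fold over control in mutant JMJD3. With the median over probe sets the log2 difference was 0.495. CTNNA1, which links cadherins to actin, read 11.75, 12.27 and 12.14 in the same order of arrays, and all 5 of its probe sets were lower in mutant JMJD3 than in control. NECTIN2 read 8.02, 8.48 and 8.27, and NECTIN3 read 7.15, 6.92 and 7.13 at its brightest probe set but 6.66, 5.54 and 6.82 at 227503_at.

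All 10 desmosome genes were measured in mutant against wild-type JMJD3, 6 higher and 4 lower, with 1 past 2-fold each way. Over all 12829 measured genes 6.2% were 2-fold higher and 2.61% 2-fold lower in that comparison. DSC2, a desmosomal cadherin, read 8.75 in mutant JMJD3, 7.54 in wild-type JMJD3 and 8.08 in control, and PKP3, a plaque protein, read 7.43, 8.48 and 8.24. Taking the median of its probe sets put DSC2 under 2-fold (0.785 on the log2 scale), and an added offset did so for PKP3 (-0.89). DSP, the desmoplakin gene, read 12.39, 11.70 and 12.45, and DSG2 read 12.05, 11.29 and 11.92, so both were lowest in wild-type JMJD3, as OCLN was. In wild-type JMJD3 against control 4 of the 9 measured desmosome genes were higher and 5 lower. Their median was -0.30, beside 0.05 over all genes.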
